A study of Mus musculus with 17 samples.

Results

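Many genes of mouse embryonic stem cells rose within 1 day of retinoic acid (RA) differentiation. A set of 183 protein-coding genes was much lower at that day in *Usb1* knockout cells. At day 3 the set was at a level near that of wild-type cells. The 183 genes were taken from a table of 54532 genes, 22046 of them protein-coding, by a rule on mean TPM (transcript abundance scaled for gene length and library size). A gene was taken where wild-type cells at day 1 had at least 5 TPM and at least 2 times their day 0 level, where wild-type cells at day 3 kept at least 0.5 of the day 1 level, where the knockout at day 1 was at 0.6 of wild-type or less, and where the knockout at day 3 was at 0.75 of wild-type or more. Genes whose symbols begin with Hox, Cyp26, Crabp, Rar, Wnt, Fox or Col were left out. The wild-type conditions alone were met by 947 genes, and by 922 once these families were left out. Of the 922, 236 had the low knockout level at day 1, and 53 of these were still under 0.75 of wild-type at day 3. The remaining 739 of the 922 genes are called the other induced genes here and serve as the comparison. The rise of the 183 genes in wild-type cells, their low level in the knockout at day 1 and their level at day 3 therefore chose them and are given as a description, without a test.

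The cells were of the R1 line of mouse embryonic stem cells, sequenced in bulk. The wild-type groups were cells at day 0 without RA, in self-renewal culture (n = 2), and cells after 1 day (n = 3) and 3 days (n = 3) of RA differentiation. The knockout groups were cells of the *Usb1* knockout line KO-1 at day 0, day 1 and day 3 (n = 3 each) made with CRISPR/Cas9. The labels name no other allele or agent. No library was of cells kept without RA to day 1 or day 3, so RA and time in culture cannot be told apart. KO-1 is 1 clone that still makes a mutant *Usb1* mRNA, so the effect of the clone and that of the knockout cannot be told apart.

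RA is carried within the cell by binding proteins and acts through nuclear receptors that sit on DNA as RAR and RXR pairs. In stem cells it ends self-renewal and starts programmes of patterning, neural and extraembryonic differentiation. USB1 is an exonuclease that trims the 3′ end of the U6 snRNA, a core part of the spliceosome. Early RA targets include genes that carry and take up retinoids and homeobox genes that give cells their place along the body axis, while the ID proteins, which block basic helix-loop-helix factors, respond to BMP signals.

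RAR and RXR bind pairs of short hexamers, so promoters of the 183 genes were searched on both strands for the hexamer AGGTCA and for its variant AGTTCA, from 250 bases before to 50 bases after each start. The promoters are those of RefSeq on GRCm38.p6. In all, 139 of the 183 genes had an entry, with 193 promoters. AGGTCA was in 11.9% of these promoters, against 12.9% of the promoters of the protein-coding genes tested and 16.3% of all promoters. AGTTCA was in 8.29%, against 10% and 14.0%. Pairs of these hexamers or of their variants, GGGTCA as well as GGTTCA, were searched in the same orientation with 1, 2 or 5 bases between them. They were found in 0 of the 193 promoters. The shares were 0.359% for the protein-coding genes tested, 0.624% for the other induced genes and 0.588% for all promoters. At shares this low, 0 of 193 cannot be read as an absence. TATAAA was in 8.81% of the promoters, against 7.33% of those of the protein-coding genes tested. The median promoter had 18 CpG dinucleotides, against 20. The 3 stretches shown here, each written on the strand of its gene with the hexamer in capitals, are examples of a single hexamer without a partner. They were chosen after the values were seen, for 2 genes that were lower in the knockout already at day 0 and for *Sox4*, which encodes a transcription factor.
Pmp22 (chr11:63128789-63128848, GRCm38.p6, + strand): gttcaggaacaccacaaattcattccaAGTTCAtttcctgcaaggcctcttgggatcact
Bmf (chr2:118549794-118549853, GRCm38.p6, − strand): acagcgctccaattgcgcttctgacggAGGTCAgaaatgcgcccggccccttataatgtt
Sox4 (chr13:28953829-28953888, GRCm38.p6, − strand): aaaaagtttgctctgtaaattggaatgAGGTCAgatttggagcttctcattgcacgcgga
The hexamer lies 160 bases before the start of *Pmp22*, 134 before that of *Bmf* and 156 before that of *Sox4*. These windows hold letters only, and binding was not measured.

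Some facts of the libraries bear on the values. Reads on genes ranged from 15404379 to 17300186. Wild-type replicate 1 at day 0 stood apart, with 239 genes of 1 read, against 1352 in the other wild-type library at day 0 and 1224 to 2467 in the rest. *Usb1* was at 37.1 to 40.0 TPM in wild-type libraries and 15.2 to 17.9 TPM in knockout cells at day 0, at 48.6 to 56.9 and 18.5 to 21.4 TPM at day 1, and at 32.0 to 35.8 and 14.7 to 20.4 TPM at day 3. At day 0 the stem cell genes *Pou5f1* (1382 ± 15.4 TPM in wild-type, SD, n = 2, and 1390 ± 97.7 TPM in knockout cells, n = 3) and *Nanog* (820 ± 22.9 and 811 ± 47.8 TPM) were present in both genotypes. Of the 10 fibroblast markers, *Postn*, *Dcn* and *Lum* were at 0 TPM in both genotypes at day 0 and day 1. The others ran up to *Fbln1* (36.2 and 33.3 TPM in wild-type and knockout cells) and *Fn1* (467 and 423 TPM), and the sum of the 10 at day 0 was 512 to 513 TPM in wild-type and 420 to 522 TPM in knockout libraries.

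In wild-type cells the median of the 183 genes at day 1 was 18.1 TPM, with quartiles of 9.75 and 33.1 TPM. The range ran from 5.07 TPM (*Tmem95*) to 1570 TPM (*Igfbp2*). The lowest levels were common: 48 genes were at 10 TPM or less, and 13 were at 100 TPM or more. The median rise from day 0 to day 1 was 3.79-fold over the 180 genes above 0 at day 0. *Stra6*, *Mogat2* and *5730596B20Rik* were at 0 TPM in both wild-type libraries at day 0. Most of the set was expressed before RA, with a wild-type day 0 mean above 1 TPM in 159 of the 183 genes. Expression continued upward in most of the set, since 117 genes had a higher mean at day 3 than at day 1 and 51 of them were at 2 times or more.

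Expressed as a percentage of the wild-type day 1 mean, the median of the 183 genes was 24.1% and 28.2% in the wild-type libraries at day 0 and 22.9%, 20.1% and 22.0% in the knockout libraries. At day 1 it was 107%, 92.9% and 98.9% in wild-type and 52.9%, 51.3% and 45.8% in knockout libraries. At day 3 it was 136%, 129% and 152% in wild-type and 122%, 144% and 139% in knockout libraries. The other induced genes were at 80.4%, 79.7% and 76.3% in the knockout libraries at day 1, so a level below wild-type at day 1 was present outside the set as well.

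**Figure D1:**
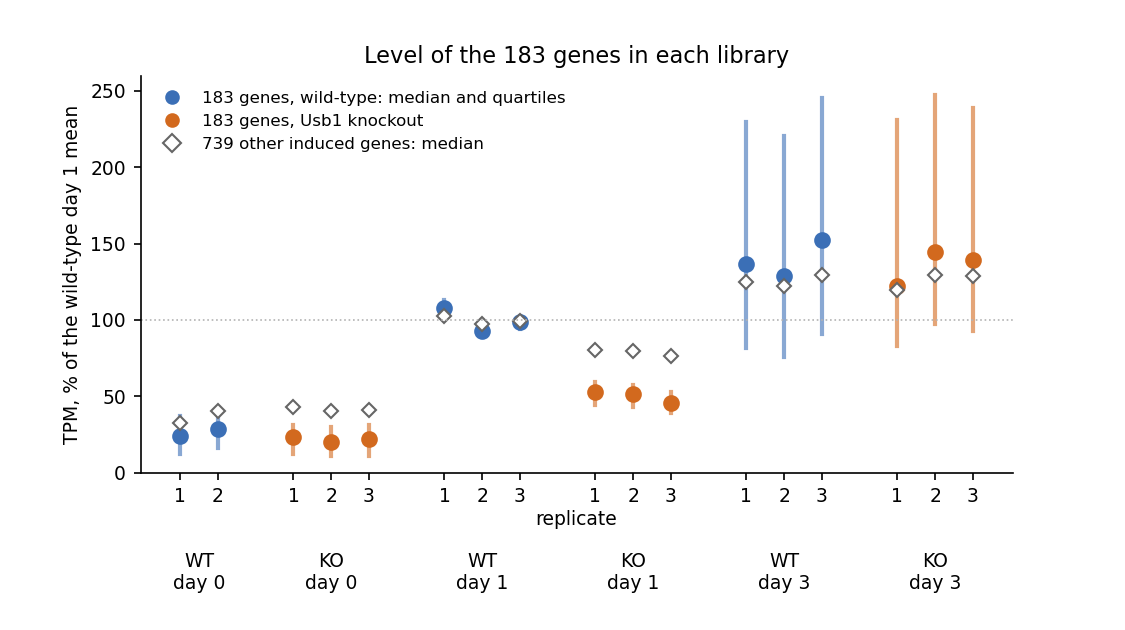
Median (circle) and quartiles (line) of the 183 genes in each of the 17 libraries, as a percentage of the wild-type (WT) day 1 mean TPM, with the median of the 739 other induced genes (diamond). The knockout (KO) libraries at day 1 are at 45.8% to 52.9%, between the day 0 and the wild-type day 1 libraries. The rule required the low knockout level at day 1. The medians of the genotypes overlap at day 3, where the rule set a lower limit for the knockout but no upper one.

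The median ratio of knockout to wild-type mean TPM at day 1 was 0.515 in the 183 genes, with quartiles of 0.438 and 0.559. It was 0.790 in the other induced genes and 0.880 over all genes tested. The ratio was 0.5 or less in 82 genes and 0.4 or less in 37. The knockout libraries were all below the wild-type libraries in 179 genes, where 30.4% of all genes tested had the same arrangement, and the exceptions were *Cda*, *Gm29797*, *Gypc* and *Rps27*. By limma, 59 of the 183 genes were called lower at day 1 (adjusted p under 0.05 and at least a 2-fold difference), where 1.76% of all genes were called lower, and 0 were called higher, where the share was 0.462%. These counts follow from the rule, and nothing is read from them. On the log2(TPM + 1) scale, which understates the difference of low genes, the median was −0.86 in the 183 genes and −0.13 over all genes. With the libraries brought to an equal median, the median of all genes moved to 0.04 and that of the 183 genes to −0.63. The rule itself depends on this scaling: it found 74 genes with an equal median and 84 after quantile normalization, and 72 and 82 of these were among the 183.

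Markers of the stem cell state also differed between the genotypes at day 1. The summed TPM of the 7 stem cell markers was 8371 to 8858 in wild-type and 10440 to 11373 in knockout libraries at day 1. At day 3 the sum was 1021 to 1250 in wild-type and 1394 to 1760 in knockout libraries. The sum thus stayed higher in the knockout when the 183 genes were near the wild-type level, but the 7 markers did not all follow. *Nanog* was higher in the knockout at day 3 (wild-type 22.6 ± 2.16 TPM, knockout 87.2 ± 5.70 TPM, SD, n = 3). *Klf4* alone had a lower mean in the knockout at day 3 (wild-type 58.0 ± 0.819 TPM, knockout 32.5 ± 2.84 TPM). *Dppa5a* was the largest part of the sum (day 1 means: wild-type 5792 ± 281 TPM, knockout 7192 ± 514 TPM). Among these markers at day 1, *Esrrb* was at 112 ± 4.10 TPM in wild-type libraries and 240 ± 22.0 TPM in knockout cells, while *Sox2* was at 735 ± 30.6 and 644 ± 1.73 TPM (SD, n = 3). The summed TPM of the 10 fibroblast markers was 620 to 808 in wild-type and 444 to 574 in knockout libraries, carried by *Fn1* and *Fbln1*, which stem cell cultures also express. The part of either in the lower level of the 183 genes was not tested. In bulk samples, fewer cells of a type and less RNA per cell cannot be told apart.

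The level in the knockout cells was higher at day 1 than at day 0 for most of the set. Their day 1 mean was at least 2 times their day 0 mean in 108 of the 183 genes and below it in 7. The 7 genes, named after their values were seen, were *Tmem95*, *Tnfrsf18*, *Gm6685*, *Emp3*, *1700001K19Rik*, *Rps27* and *Zkscan16*. The median rise in the knockout was 2.27-fold, against 1.91-fold in the other induced genes. By limma, 87 of the 183 genes (47.5%) were called higher at day 1 than at day 0 in the knockout, against 39.8% of the other induced genes and 4.07% of all genes tested. In wild-type cells 173 were called higher, against 9.99% of all genes. The day 1 knockout libraries were all above the day 0 knockout libraries in 156 genes (85.2%), against 90.9% of the other induced genes and 25.2% of all genes. Knockout day 1 levels entered the rule, so these counts are a description. The rise in the knockout, as a share of the rise in wild-type cells, had a median of 36.9% with quartiles of 27.6% and 45.7%. In 171 genes the knockout day 1 mean was closer to the wild-type day 0 mean than to the wild-type day 1 mean.

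Most of the difference between day 1 and day 3 was in the knockout. The ratio of day 3 to day 1 had a median of 2.82 in the knockout and 1.40 in wild-type cells. The knockout mean at day 3 was at least 2 times that at day 1 in 128 genes, and all 3 day 3 libraries were above all 3 day 1 libraries in 157 (85.8%), against 67.5% of the other induced genes and 28.9% of all genes tested. Both groups entered the rule. The median ratio of knockout to wild-type at day 3 was 0.997, with 90 genes above 1 and 71 genes between 0.9 and 1.1. The libraries of the genotypes overlapped in 136 genes, the knockout was below in 22 (12%), and above in 25 (13.7%). Over all genes tested these shares were 11% below and 11% above, and over the other induced genes 22.5% and 16%. By limma 0 of the 183 genes were called lower in the knockout at day 3, where 0.773% of all genes were, and 2 were called higher, where 0.521% were. The rule set the lower limit at day 3 but no upper one, so only the upper side was free.

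**Figure D2:**
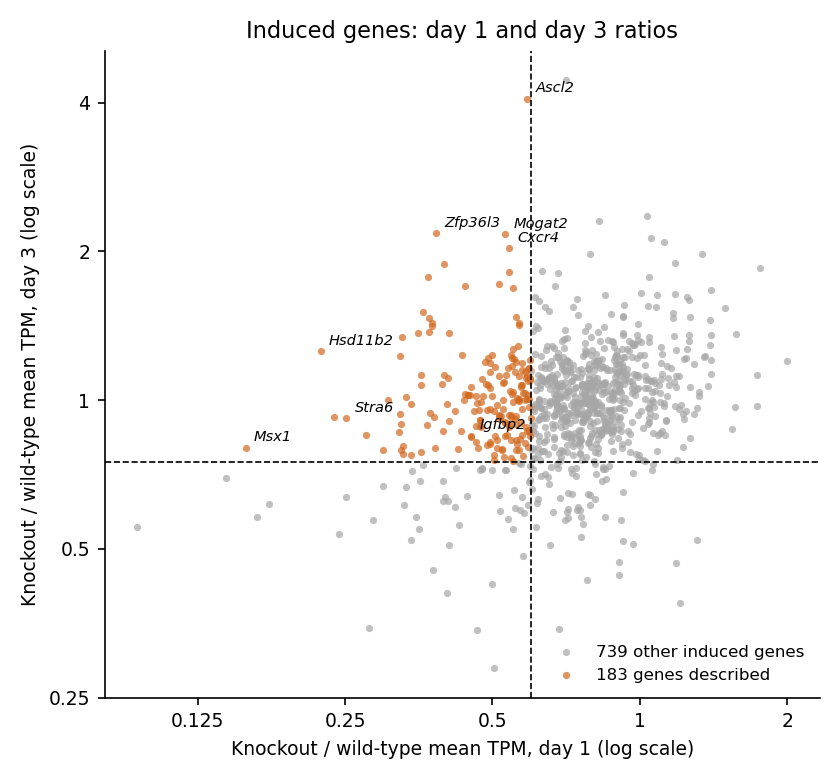
Ratio of knockout to wild-type mean TPM at day 1 (horizontal) and day 3 (vertical), both on log scales, for the 922 induced genes, with the limits of 0.6 and 0.75 as dashed lines. The 183 genes fill the upper left field by construction, from *Msx1* (0.157 at day 1) to *Ascl2* (4.07 at day 3).

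The retinoid and RA target genes of the set had 8 members, and their median ratio was 0.468 at day 1 and 1.04 at day 3. *Stra6* (chr9:58063788-58153996, GRCm38), the membrane receptor that takes up retinol, was at 0 TPM in both wild-type libraries at day 0 and at 0.0372, 0.108 and 0 TPM in the knockout. The day 1 values were 16.7, 14.4 and 13.8 TPM in wild-type libraries and 4.11, 4.66 and 2.50 TPM in knockout cells. At day 3 the levels were 8.82, 8.12 and 7.76 TPM in wild-type libraries and 8.24, 7.81 and 6.64 TPM in knockout cells. *Stra6* was thus lower at day 3 than at day 1 in wild-type cells and higher in the knockout, and the genotypes overlapped at day 3. *Zfp703*, a zinc finger repressor, had the steepest wild-type rise of the 180 genes, 250-fold, from 0 and 0.666 TPM to 82.1, 78.5 and 89.3 TPM, and was at 30.3, 28.6 and 30.5 TPM in the knockout at day 1. Its day 3 levels of 94.9, 88.2 and 90.9 TPM in wild-type libraries and 94.4, 105 and 94.9 TPM in knockout cells overlapped.

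*Meis2*, which encodes a homeodomain partner of the HOX proteins, was at 10.4, 9.36 and 10 TPM in wild-type libraries and 4, 3.52 and 3.70 TPM in knockout cells at day 1. The day 3 values were 27.3, 24.4 and 26.2 TPM in wild-type libraries and 32.4, 36.4 and 40.9 TPM in knockout cells. The knockout was below wild-type at day 1 and above it at day 3 in every library. *Nrip1*, a corepressor of nuclear receptors, was at 0.548 of wild-type at day 1 and 1.22 at day 3, *Skida1* at 0.505 and 0.846, and the zinc finger gene *Tshz1* at 0.561 and 1.01. Of the 30 genes listed as retinoid and RA target genes, 27 were tested, 12 met the wild-type conditions, and 9 of these were low in the knockout at day 1. Not every RA target was low: *Dhrs3*, a retinal reductase, was at 73.5 ± 1.87 TPM in wild-type libraries and 68.0 ± 6.56 TPM in the knockout at day 1.

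Among the other homeobox genes, *Msx1* (chr5:37820485-37824583), a regulator of progenitors downstream of BMP signals, had the lowest day 1 ratio of the set, 0.157. Its day 1 values were 21.9, 18.0 and 19.6 TPM in wild-type libraries and 3.36, 2.16 and 3.78 TPM in knockout cells. At day 3 the levels were 18.4, 20.4 and 18.5 TPM and 15.5, 15.9 and 14.4 TPM. The wild-type levels of *Msx1* overlapped between day 1 and day 3, and the knockout was below wild-type in every library. *Prrx2* was at 38.8, 45.3 and 38.1 TPM in wild-type libraries and 14.1, 18.2 and 16.1 TPM in the knockout at day 1. *Zfhx3* was at 0.470 of wild-type at day 1 and 0.954 at day 3. *Sox11* and *Sox4* encode SOX factors of neural progenitors. *Sox11* was at 11.4, 12.3 and 10.9 TPM in wild-type libraries and 5.41, 5.88 and 5.01 TPM in the knockout at day 1. *Sox4* was at 0.452 of wild-type at day 1 and 1.06 at day 3.

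The ID genes were among the most abundant. *Id1* was at 292 and 380 TPM in wild-type libraries and 256, 289 and 308 TPM in knockout cells at day 0. The day 1 values were 785, 825 and 866 TPM in wild-type libraries and 464, 482 and 512 TPM in knockout cells. By day 3 the values were 720, 789 and 700 TPM and 690, 650 and 579 TPM. *Id1* was highest at day 1 in wild-type cells and at day 3 in the knockout. *Id2* was at 265, 265 and 294 TPM in wild-type libraries and 145, 123 and 147 TPM in the knockout at day 1, and overlapped at day 3 (272, 314 and 274 TPM against 284, 263 and 269 TPM). *Id3* was at 154, 162 and 172 TPM against 96.3, 92.2 and 102 TPM at day 1. Of the 3 genes it had the largest step to day 3, to 481, 510 and 454 TPM in wild-type libraries and 434, 409 and 378 TPM in knockout cells. Of the 26 BMP and TGF-beta pathway genes tested, 5 met the wild-type conditions, 4 of these were low in the knockout at day 1 and the 3 ID genes belonged to the set.

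The 22 ligands, surface receptors and signal modulators had a median ratio of 0.475 at day 1 and 0.978 at day 3. *Igfbp2* (chr1:72824503-72852474), a secreted carrier of insulin-like growth factors, was the most abundant. Its level at day 1 was 1588, 1622 and 1501 TPM in wild-type libraries and 768, 625 and 737 TPM in the knockout, and the level at day 3 was 2704, 2781 and 2519 TPM and 2358, 2457 and 1967 TPM. The genotypes did not overlap at either day. *Fgfr2*, an FGF receptor, was at 15.2, 11 and 12.2 TPM in wild-type libraries and 4.42, 5.16 and 4.52 TPM in the knockout at day 1. It was at 45.4, 44.0 and 48.0 TPM and 37.0, 44.1 and 41.1 TPM at day 3, when the libraries overlapped. *Boc* and *Cdon*, coreceptors of Hedgehog ligands, were at 0.332 and 0.545 of wild-type at day 1 and at 1.01 and 0.923 at day 3. *Gli3*, the main repressor of Hedgehog target genes, was at 0.573 and 1.19. Of the 12 Hedgehog pathway genes tested, 4 met the wild-type conditions and these 3 belonged to the set. The guidance genes *Plxna2*, a semaphorin receptor, and *Efnb2*, an ephrin ligand, were at 0.276 and 0.325 at day 1 and 0.8504 and 0.896 at day 3. *Wfikkn1*, a secreted binder of GDF proteins, was at 0.324 and 1.23.

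The 14 extracellular matrix genes had a median ratio of 0.521 at day 1. *Mrc2*, an endocytic collagen receptor, was at 161, 132 and 135 TPM in wild-type libraries and 46.5, 43.5 and 38.0 TPM in knockout cells at day 1. The day 3 values were 201, 183 and 204 TPM and 147, 182 and 137 TPM, with the knockout below wild-type in every library at both days. *Lgals1*, a galectin, was at 180, 186 and 185 TPM against 92.3, 85.5 and 104 TPM at day 1. Of the 13 genes at 100 TPM or more it had the highest ratio of day 3 to day 1, with 1141, 1179 and 1020 TPM in wild-type libraries and 1211, 1053 and 1005 TPM in the knockout. Of the 15 adhesion and cytoskeleton genes, *Rhob*, a small GTPase, was at 179, 171 and 182 TPM against 107, 106 and 105 TPM, and *Abl1*, a tyrosine kinase, at 144, 123 and 123 TPM against 74.0, 76.2 and 67.5 TPM at day 1. The 9 nervous system genes had the lowest median ratio among these groups at day 1, 0.440. *Gap43*, a protein of growth cones, was at 104, 109 and 110 TPM in wild-type libraries and 50.6, 42.9 and 49.0 TPM in the knockout at day 1. The day 3 values were 102, 103 and 110 TPM and 186, 169 and 181 TPM. Its wild-type levels overlapped between the days, and all knockout libraries were above it at day 3.

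The 15 metabolism and transport genes had a median ratio of 0.517 at day 1. *Hsd11b2* (chr8:105518755-105523988), which inactivates glucocorticoids, was at 21.3, 28.4 and 23.9 TPM in wild-type libraries and 5.19, 6.72 and 4.49 TPM in knockout cells at day 1. At day 3 the levels were 42.4, 45.8 and 41.6 TPM and 59.0, 55.2 and 48.7 TPM, so the order of the genotypes had turned. Of the 70 genes without an assigned role, *Bmf*, a BH3-only inducer of cell death, was at 57.0, 49.2 and 52.8 TPM against 12.8, 12.3 and 12.6 TPM at day 1. *Rec8*, a meiotic cohesin subunit that RA also induces in germ cells, was at 100, 102 and 103 TPM against 35.0, 34.5 and 29.6 TPM at day 1, and at 323, 314 and 318 TPM against 259, 257 and 240 TPM at day 3. Low ratios at day 1 were also found for *Tgfb1i1*, a focal adhesion protein (0.306), *Pik3r3*, a regulatory subunit of PI3 kinase (0.321), and *Mxd4*, a partner of MAX (0.323). *Nudt4*, a polyphosphate hydrolase (602 TPM in wild-type at day 1), was at 0.572, and *Gse1* at 0.594. *Nudt4* and *Rps27* (487 TPM), a ribosomal protein gene, have near-identical copies with which they may share reads, and 12 of the 183 genes in all are predicted genes or have such copies, so their levels are uncertain.

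**Figure D3:**
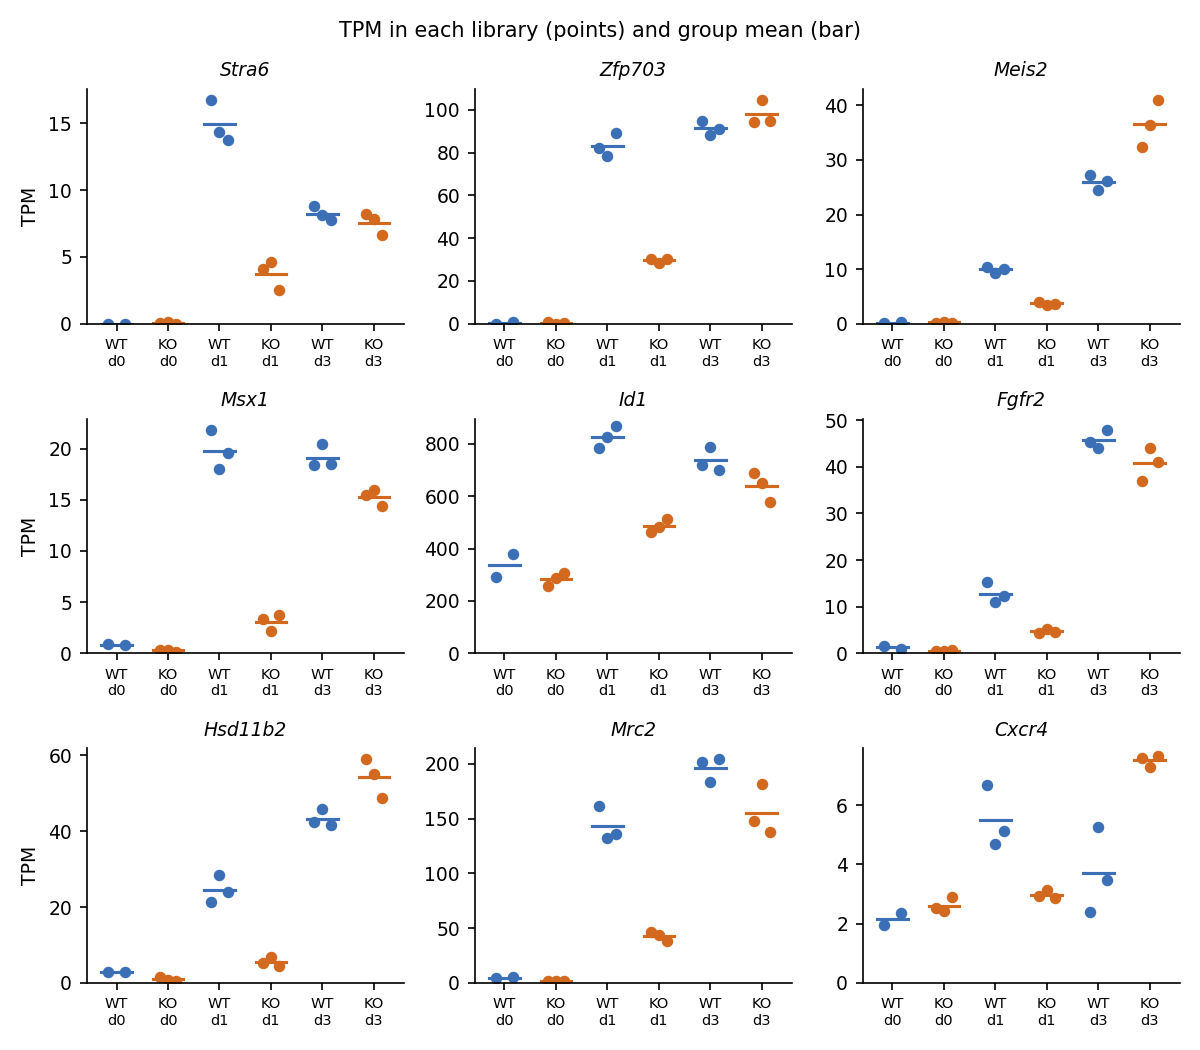
TPM of 9 of the 183 genes in each library (points) with group means (bars), from day 0 to day 3, in wild-type (WT, blue) and knockout (KO, orange) cells. In each panel the knockout points at day 1 lie below the wild-type points, for example *Stra6* at 2.50 to 4.66 against 13.8 to 16.7 TPM. The knockout points of *Meis2*, *Cxcr4* and *Hsd11b2* lie above wild-type at day 3.

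In 24 genes the knockout mean at day 3 was at least 1.25 times that of wild-type, and in 11 at least 1.5 times. *Ascl2*, a trophoblast transcription factor, was at 5.82, 6.54 and 9.23 TPM in wild-type libraries and 4.70, 3.87 and 4.14 TPM in the knockout at day 1. By day 3 the values were 5.59, 5.21 and 4.43 TPM against 23.3, 19.5 and 19.3 TPM, a ratio of 4.07. *Cxcr4*, a chemokine receptor of endoderm, was at 2.39, 5.26 and 3.46 TPM against 7.61, 7.30 and 7.65 TPM at day 3, a ratio of 2.03. The ratio was 2.18 for *Zfp36l3*, a placental RNA-binding protein, 2.17 for *Mogat2*, a monoacylglycerol acyltransferase, 1.89 for *Tmem95* and 1.82 for *Plau*, the urokinase protease. Of these 6 genes, *Tmem95* had overlapping libraries at day 3. For *Ascl2* and *Cxcr4*, the knockout at day 1 was at 1.21 and 1.14 times its own day 0 level.

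Knockout cells at day 0 did not enter the rule, but the wild-type day 0 libraries entered it as the base of the rise. The required rise favours low wild-type values at day 0, which can raise the day 0 ratio in all induced genes. The low knockout level required at day 1 favours genes already low in the knockout before RA. The comparison of the genotypes at day 0 was therefore not free of the rule, and its counts and p-values are given as a description. The median ratio of knockout to wild-type at day 0 was 0.823 over the 180 genes above 0 in wild-type, and 122 of them were below 1. It was 1.15 in the other induced genes and 0.957 over all genes tested. Against wild-type replicate 2 alone, leaving out the library that stood apart, it was 0.783, 1.03 and 0.937 in the same order. Against replicate 1 alone it was 0.821, 1.24 and 0.938, over 161, 690 and 16204 genes. Genes at 0 TPM in replicate 1 have no ratio there, so these medians leave them out. All 3 knockout libraries were below both wild-type libraries in 71 of the 183 genes (38.8%), against 14.3% of the other induced genes and 21.3% of all genes tested. They were above both in 14 (7.65%), against 29.9% of the other induced genes and 15.3% of all genes. The low level at day 0 was not particular to the 183 genes. In the 53 induced genes that were low in the knockout at day 1 and still low at day 3, the median ratio at day 0 was 0.805, the knockout was below both wild-type libraries in 23 (43.4%), and 7 (13.2%) were called lower. In the 686 induced genes that were not low at day 1, the median ratio was 1.18, the knockout was below in 12.1%, and 2 were called lower.

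**Figure D4:**
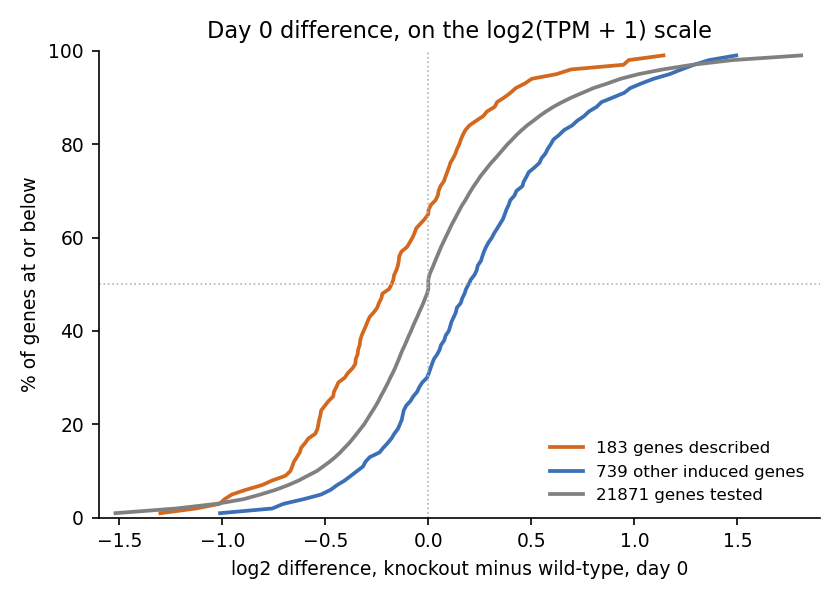
Share of genes (vertical, percent) at or below each log2 difference of knockout minus wild-type at day 0 (horizontal, log2(TPM + 1) scale, percentiles 1 to 99). The 183 genes (median −0.18) lie to the left of the other induced genes (median 0.20) at each percentile, with all genes tested (median 0.00) between them over most of the range and wider in both tails.

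By limma on log2(TPM + 1), with Benjamini-Hochberg adjustment over 21871 genes, 7 of the 183 genes (3.83%) were called lower in the knockout at day 0, against 1.22% of the other induced genes and 1.45% of all genes. In the opposite direction 2 (1.09%) were called, against 5.01% of the other induced genes and 1.6% of all genes. With the adjusted p alone, 35 genes (19.1%) were lower and 6 (3.28%) higher, against 6.8% and 5.08% of all genes and 6.50% and 18.5% of the other induced genes. With either wild-type day 0 library left out, that group rests on 1 library, so counts are not given. The median log2 difference of the 183 genes at day 0 was −0.18 with all libraries. It was −0.29 without wild-type replicate 1 and −0.16 without wild-type replicate 2. With the day 0 libraries fitted alone, 2 (1.09%) were lower and 0 higher at the adjusted p alone, against 0.512% and 0.302% of all genes, and 1 (0.546%) was called lower, against 0.183% of all genes. In that fit the spread rests on 5 libraries.

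*Igfbp2* was called lower under each alternative fit of the day 0 comparison. Its day 0 values were 470 and 444 TPM in wild-type libraries and 212, 187 and 209 TPM in the knockout, a log2 difference of −1.17 (SE 0.10, adjusted p = 7.61e-06, limma). Its ratio of knockout to wild-type was 0.445 at day 0 and 0.452 at day 1, and its rise over 1 day was 3.44-fold in wild-type and 3.50-fold in knockout cells. The ratio of *Igfbp2* before RA was therefore close to that after 1 day. The difference between the rises of the genotypes was not tested, since day 1 chose the genes. *Bnip3*, a mitophagy receptor, was at 13.7 and 11.3 TPM in wild-type libraries and 4.49, 3.05 and 6.32 TPM in the knockout at day 0 (log2 difference −1.30, SE 0.19, adjusted p = 0.000678, limma). Its call was lost with the day 0 libraries fitted alone. Its ratio was 0.371 at day 0 and 0.398 at day 1, with a rise of 4.40-fold in wild-type and 4.72-fold in knockout cells. *Prrx2* was at 12.2 and 22.6 TPM against 7.95, 7.37 and 6.31 TPM at day 0 (log2 difference −1.11, SE 0.23, adjusted p = 0.00672, limma). Without wild-type replicate 2 its log2 difference was −0.69 and it was not called, and an equal median or quantile normalization also ended the call. The ratio of *Prrx2* was 0.415 at day 0 and 0.396 at day 1.

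The other called genes rested more on single libraries. *Rhobtb1* was at 4.72 and 1.75 TPM in wild-type libraries and 0.428, 0.207 and 0.607 TPM in knockout cells (log2 difference −1.50, SE 0.26, adjusted p = 0.00238, limma). *Pmp22*, a myelin protein, was at 5.42 and 1.06 TPM against 0.828, 0.0889 and 0.553 TPM (log2 difference −1.32, SE 0.33, adjusted p = 0.0194, limma). *Bmf* was at 13.9 and 8.12 TPM against 4.58, 5.14 and 4.75 TPM (log2 difference −1.003, SE 0.16, adjusted p = 0.00131, limma). In all 3 genes wild-type replicate 1 was the higher library, and without it the log2 differences were −0.97, −0.50 and −0.65, and none was called. *Hsd11b2* was at 2.73 and 2.82 TPM against 1.65, 0.796 and 0.354 TPM (log2 difference −1.02, SE 0.22, adjusted p = 0.00952, limma). Its knockout libraries were spread, and without knockout replicate 3 the log2 difference was −0.79 and not called. *Rps27* was at 128 and 237 TPM in wild-type libraries and 297, 608 and 328 TPM in the knockout, and *Nudt10* at 0 and 1.40 TPM against 2.07, 3.18 and 2.08 TPM. These 2 genes were called higher (log2 differences of 1.16 and 1.14, SE 0.35 each, adjusted p = 0.0442 and 0.0473, limma), and without wild-type replicate 1 the log2 differences were 0.71 and 0.51 and neither was called.

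**Figure D5:**
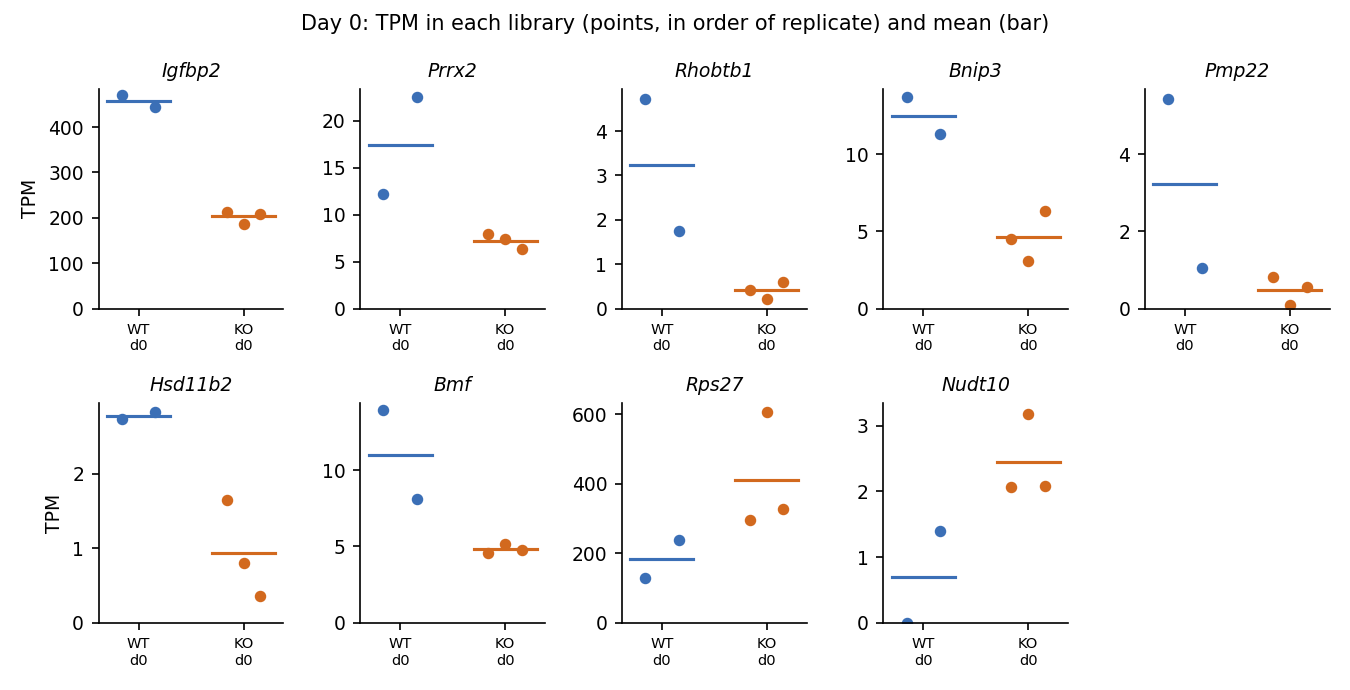
TPM at day 0 in each library (points, in order of replicate) and the mean (bars) of the 9 genes called between the genotypes at day 0, in wild-type (WT, blue) and knockout (KO, orange) cells. *Igfbp2* is at 444 to 470 TPM against 187 to 212 TPM, while the wild-type points of *Pmp22* are far apart, at 5.42 and 1.06 TPM.

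Retinoid genes at day 0 were at or near the limit of reads in several cases. Of the 8 members, *Skida1* was lower at the adjusted p alone, at 5.10 and 7.42 TPM in wild-type libraries and 4.26, 4.21 and 3.79 TPM in the knockout (log2 difference −0.50, adjusted p = 0.0329, limma). *Nrip1* was at 4.86 and 5.87 TPM against 3.74, 3.03 and 3.58 TPM (log2 difference −0.51, adjusted p = 0.0892, limma). For *Meis2*, *Zfp703*, *Tshz1* and *Stra6* the day 0 libraries overlapped. Among the genes described above, *Mrc2* (log2 difference −0.96, adjusted p = 0.000422), *Mxd4* (−0.66, adjusted p = 0.00544), *Gap43* (−0.65, adjusted p = 0.00485), *Boc* (−0.69, adjusted p = 0.0244) and *Id2* (−0.53, adjusted p = 0.0182) were also lower at the adjusted p alone by limma. In *Mrc2*, the 4.11 and 4.94 TPM of wild-type and the 1.98, 1.57 and 1.98 TPM of knockout cells at day 0 were small beside the day 1 levels.

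The set was chosen on averages of the replicates, so the rule was also applied with the libraries of 1 replicate number left out and the ratio was read in the libraries left out. Without replicate 1, 164 genes were chosen, and their day 1 ratio in replicate 1 had a median of 0.515, with 164 below 1 and 132 at 0.6 or less. The median was 0.745 over the 851 genes that met the wild-type conditions in the same libraries, where 84% were below 1 and 29% at 0.6 or less. Without replicate 2, 205 genes were chosen, with a median of 0.603 in replicate 2 (199 below 1, 98 at 0.6 or less), against 0.820 over 1234 genes (77% below 1, 16% at 0.6 or less). Without replicate 3, 176 genes were chosen, with a median of 0.479 in replicate 3 (172 below 1, 146 at 0.6 or less), against 0.726 over 941 genes (85% below 1, 30% at 0.6 or less). The day 3 medians in the libraries left out were 0.916, 1.14 and 0.926, against 0.945, 1.05 and 0.966 over the genes that met the wild-type conditions. The labels give replicate numbers but state no pairing of the libraries, and replicate 3 has no wild-type library at day 0.

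Genes close to the limits show how sharp the rule is. At the day 1 limit of 0.6, *Sgsm1* (0.599), *Rhob* (0.598) and *Zkscan16* (0.598) were just inside and *Hoga1* (0.60002), *Npr2* (0.602) and *Inafm1* (0.603) just outside. At the day 3 limit of 0.75, *Gm5796* (0.755), *Afap1* (0.757) and *Tceal5* (0.763) were inside and *Elf1* (0.747), *Sohlh2* (0.742) and *Cacnb3* (0.740) outside. At a wild-type rise of 2, *Parp4* (2.01), *Bbx* (2.02) and *Gli3* (2.03) were inside and *Dgkz* (2.00), *Fam214a* (1.99) and *Sox12* (1.97) outside. At the wild-type day 3 limit of 0.5, *Ttc39c* (0.503), *Efnb3* (0.508) and *Acot1* (0.521) were inside and *Nfasc* (0.498), *Gm17720* (0.497) and *Nptx1* (0.492) outside. At 5 TPM, *Tmem95*, *Cthrc1* (5.11 TPM) and *1700001K19Rik* (5.14 TPM) were inside and *Micall1* (4.99 TPM), *Cplx2* (4.76 TPM) and *Prkd1* (4.71 TPM) outside. Among the families left out, 25 genes met the wild-type conditions and 7 met every number of the rule: *Crabp2*, *Colec12*, *Hoxb1*, *Hoxb2*, *Hoxb3*, *Hoxb6* and *Wnt9a*.

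The 183 genes were 1.26% of the 14485 protein-coding genes tested and 19.8% of the 922 induced genes. Of the 59 homeobox genes outside the HOX family tested, 16 met the wild-type conditions, 7 of them were low in the knockout at day 1 and 6 belonged to the set. Neural progenitor and neuron genes gave 1 of 24 tested (*Sox11*), endoderm genes 1 of 22 (*Cxcr4*), trophoblast and simple epithelium genes 1 of 17 (*Ascl2*) and FGF and receptor tyrosine kinase genes 1 of 23 (*Fgfr2*). Of the 7 endoderm genes that met the wild-type conditions, 6 were low in the knockout at day 1, where 25.6% of the 922 induced genes were. Only *Cxcr4* of these belonged to the set. The same counts were 9 of 12 for retinoid and RA target genes, 4 of 5 for BMP and TGF-beta genes and 3 of 4 for Hedgehog genes. For FGF and receptor tyrosine kinase genes they were 2 of 3, for neural genes 1 of 3 and for trophoblast genes 1 of 4. They were 0 of 3 for mesoderm genes and 0 of 2 for fibroblast genes. Mesoderm genes gave 0 of 22 tested, Notch pathway genes 0 of 17, fibroblast genes 0 of 10 and pluripotency genes 0 of 20. In all, 21 of the 183 genes stood in a list.

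The genes of the set were spread over the genome. Of the protein-coding genes tested on each chromosome, the share that belonged to the set ranged from 0.197% on chromosome 19 to 3.36% on chromosome 18, where 13 of 29 induced genes were in it. The median log2 difference between the genotypes on chromosome 18 was −0.04 at day 0, −0.15 at day 1 and 0.04 at day 3. The genes spanned a median of 27504 bases, against 22289 for the protein-coding genes tested and 22856.5 for the other induced genes. Their exons summed to a median of 4780 bases, against 4171 and 3755.5, in a median of 8 exon blocks, against 9 and 8. Single-block genes made up 5.46%, against 5.01% of the other induced genes.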

How the data were processed

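R1 cells were sequenced in 17 libraries. The authors made NEBNext Ultra libraries, sequenced them on a NovaSeq, and deposited TPM calculated from gene length and read counts. The submitters' processing notes name GRCm38.p6, HISAT2 2.1.0 and StringTie 1.3.6, and the authors used DESeq2 for differential expression.

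Identifiers were matched to GENCODE M21 (54495 of 54532). Reads were recovered from TPM, exon length and a step per library, and 95.9% to 96.7% of the values above 0 were whole within 0.01. Depth limits genes of few reads, and 3 reads are the limit that 0 reads allow under counting error alone. On log2(TPM + 1), limma 3.58.1 (R 4.3.3) fitted the 6 group means over all 17 libraries for the 21871 genes at 1 TPM or more in 2 or more libraries, with a variance trend and Benjamini-Hochberg adjustment. A call needs an adjusted p under 0.05 and at least a 2-fold difference. All 183 genes passed the filter. The fit was tested on simulated data. Ratios were computed with pandas 2.3.3 and numpy 2.4.6 under Python 3.11.15, and plots drawn with matplotlib 3.10.9.

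Members and gene lists were chosen with earlier results of these data known, and role groups after the members were seen. Genes named are members in a list, the 12 most abundant, the 12 lowest at day 1, the 6 highest at day 3, those called at day 0 and those nearest each limit. Others are named after their values were seen. Alternatives were other scalings, filters, pseudocounts, limits, voom, a replicate block and leaving out libraries. Some results are not reported here.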

Additional observations from a re-analysis of the deposited data

How the results depend on the processing

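The number of genes that met the rule was 84 after quantile normalization and 74 with an equal median. It was 82 with a day 1 limit of 0.5, 326 with a limit of 0.7, 117 with a rise of 3 times, and 158 to 205 with libraries left out. Below, counts against wild-type day 0 with libraries left out do not cover the libraries of that group, where 1 library would remain. At day 0, the genes of the set called lower were 1 with the day 0 libraries alone, where 0.183% of all genes were. They were 4 with an equal median, 15 with a pseudocount of 0.1 and 5 to 8 with libraries left out. Those called higher were 0 with the day 0 libraries alone or no filter, 6 with an equal median or a pseudocount of 0.1, 1 after quantile normalization, 5 with voom on the recovered reads and 0 to 10 with libraries left out. At the adjusted p alone, an alternative added after seeing the data, 2 were lower and 0 higher with the day 0 libraries alone, 11 were higher with an equal median, and 24 to 40 lower and 3 to 22 higher with libraries left out. At day 1, 30 were called lower with an equal median, 38 after quantile normalization and 53 to 71 with libraries left out. At day 3, 1 was called higher with a pseudocount of 0.1, 4 with voom and 1 to 3 with libraries left out. Libraries left out gave 83 to 93 called for the knockout rise, 160 to 175 for the wild-type rise and 0 called lower at day 3. The median log2 difference at day 0 was −0.089 with an equal median, −0.28 from ratios of mean TPM (added later) and −0.29 to −0.16 with libraries left out. At day 1 it was −0.63 with an equal median, −0.95 with a pseudocount of 0.1, −0.69 after quantile normalization, −0.96 from ratios of mean TPM and −0.91 to −0.83 with libraries left out. At day 3 it was −0.06 to 0.06 with libraries left out. The cause of these changes was not tested. For the other settings the shares over all genes are not given, so nothing is read from these counts. With replicate number as a block, 7 were called lower and 2 higher at day 0, and *Hsd11b2* (−0.93) and *Nudt10* (1.07) lost their calls. Over 40 pairs of libraries that share a number, the correlation of their deviations ran from −0.13 to 0.12. Pairs with different numbers were not compared, so whether libraries that share a number were prepared together was not tested.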
